A study of Mus musculus with 6 samples.

Results

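The enzymes and transporters of glycolysis and of the tricarboxylic acid (TCA) cycle were followed in RNA from mouse lung tumours. The members were the 40 genes of a fixed list, matched by symbol to the deposited table of CPM values (reads of a gene relative to the total of its library). Of the 40, 37 were measured, 19 of 21 for glycolysis and 18 of 19 for pyruvate dehydrogenase and the TCA cycle. The table held 10191 genes in all, and 10131 remained after the 60 rows listed ahead of Aaas were dropped. None of the 37 members stood in those 60 rows, and every value of the 37 was a whole number of reads. Slc2a3, Gpi1 and Fh1 were not analysed here.

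Both groups were lung tumours of genetically engineered mice, 3 libraries each, and the libraries were taken as 1 genotype. The genotype label differs from library to library, counting up by 1 from Ctrl replicate 1 to SD replicate 3, while the design text names a single genotype. Whether the libraries differ in genotype cannot be told from the labels. The SD group spent 20 hours a day, 14:00 to 10:00, in SD cages and the Ctrl group in home cages, over the 7 weeks that followed injection of a virus. The letters SD are not spelled out in the labels, although the series title names sleep deficiency. The virus, the cells it reached, and the age and sex of the mice were not stated in the labels. The labels call the libraries biological replicates without naming animals, and every p-value below reflects only how these libraries scatter.

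Glycolysis splits glucose into pyruvate in the cytosol. Hexokinase traps glucose in the cell, phosphofructokinase commits it to breakdown, and pyruvate kinase ends the chain. Pyruvate is then reduced to lactate by lactate dehydrogenase or enters the mitochondrion, where pyruvate dehydrogenase feeds acetyl units into the TCA cycle. Many tumours are known for high glucose uptake, and several glycolytic genes are targets of the hypoxia-inducible factors (HIF) and of MYC, whose core DNA motifs share the letters ACGTG.

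RefSeq promoter windows (build GRCm38.p6, the same assembly as mm10; 250 bases before an annotated start and 50 from it on, on the strand of the gene) were found for 35 of the 37 members. The 4 below are shown because these genes fell, rose or held level in the results that follow. Capitals mark ACGTG on either strand, and CACGTG where both strands overlap. Ldha is chr7:46845554-46845853 on the plus strand, with a RefSeq start that lies 4329 bases from the GENCODE start of the gene, and Slc2a1 chr4:119108495-119108794 on the plus strand. Pfkfb3 is chr2:11553880-11554179 on the minus strand and Pgk1 chrX:106186850-106187149 on the plus strand.
Ldha: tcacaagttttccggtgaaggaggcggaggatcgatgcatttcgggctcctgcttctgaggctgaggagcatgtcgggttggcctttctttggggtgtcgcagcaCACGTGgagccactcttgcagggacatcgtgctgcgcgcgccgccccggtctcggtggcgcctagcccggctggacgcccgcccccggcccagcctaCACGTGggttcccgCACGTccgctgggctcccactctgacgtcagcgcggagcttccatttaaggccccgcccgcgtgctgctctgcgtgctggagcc
Slc2a1: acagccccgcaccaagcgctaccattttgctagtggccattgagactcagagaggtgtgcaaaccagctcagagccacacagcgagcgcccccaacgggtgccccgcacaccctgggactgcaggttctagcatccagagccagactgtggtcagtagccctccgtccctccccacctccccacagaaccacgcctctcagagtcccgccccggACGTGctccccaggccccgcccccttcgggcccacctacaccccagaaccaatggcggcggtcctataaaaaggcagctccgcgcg
Pfkfb3: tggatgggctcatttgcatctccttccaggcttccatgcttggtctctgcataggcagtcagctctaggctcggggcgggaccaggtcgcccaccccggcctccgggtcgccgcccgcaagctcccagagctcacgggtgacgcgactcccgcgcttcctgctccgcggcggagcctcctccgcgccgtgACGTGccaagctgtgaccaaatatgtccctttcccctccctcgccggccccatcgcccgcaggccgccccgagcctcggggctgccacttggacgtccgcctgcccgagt
Pgk1: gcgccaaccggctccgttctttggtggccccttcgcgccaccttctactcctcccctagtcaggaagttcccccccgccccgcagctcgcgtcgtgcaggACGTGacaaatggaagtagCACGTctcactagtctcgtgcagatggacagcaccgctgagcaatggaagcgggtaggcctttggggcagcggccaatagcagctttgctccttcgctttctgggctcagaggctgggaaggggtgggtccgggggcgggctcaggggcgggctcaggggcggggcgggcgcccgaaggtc
ACGTG stood in 12 of the 19 glycolysis windows and in 4 of the 16 TCA windows, and 19.6% of all 32851 RefSeq windows of that length held it. Among glycolysis windows it was present in all 3 of genes that rose, in 7 of 13 that fell and in 2 of 3 that did not pass. CACGTG, which contains ACGTG on both strands, stood in 3 glycolysis windows and no TCA window, against 7.15% of all windows, and the Ldha window held it at 2 places. A match describes letters in a window and is not a site of binding.

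Most members were lower in SD. Of the 37, all of which passed the filter on low values, 24 fell, 5 rose and 8 did not pass (limma, adjusted p under 0.05 over all genes). Of the 5, Sdhc met that filter only through SD, where it was high. Slc2a1, Pfkfb3 and Sdhc stand in rows out of alphabetical order, as described at the end. In the same fit 56.4% of 9945 genes passed, 27.7% higher in SD and 28.7% lower, so a called gene by itself was common. As a description, the share of members that fell was above that of all tested genes. The members were chosen with earlier results of these data known, so this difference is not a test. In glycolysis 13 fell, 3 rose and 3 did not pass, with a median log2 fold change of -0.65. In the TCA cycle 11 fell, 2 rose and 5 did not pass, with a median of -0.46. The median of all tested genes was -0.013. The groups did not overlap in 29 of the 37 members, against 60.1% of all tested genes. Folds in the text are ratios of mean CPM, values are CPM as mean ± s.d. (n = 3 libraries per group), and log2 changes are on the scale of log2(CPM + 1), which understates the change of low genes.

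**Figure D1:**
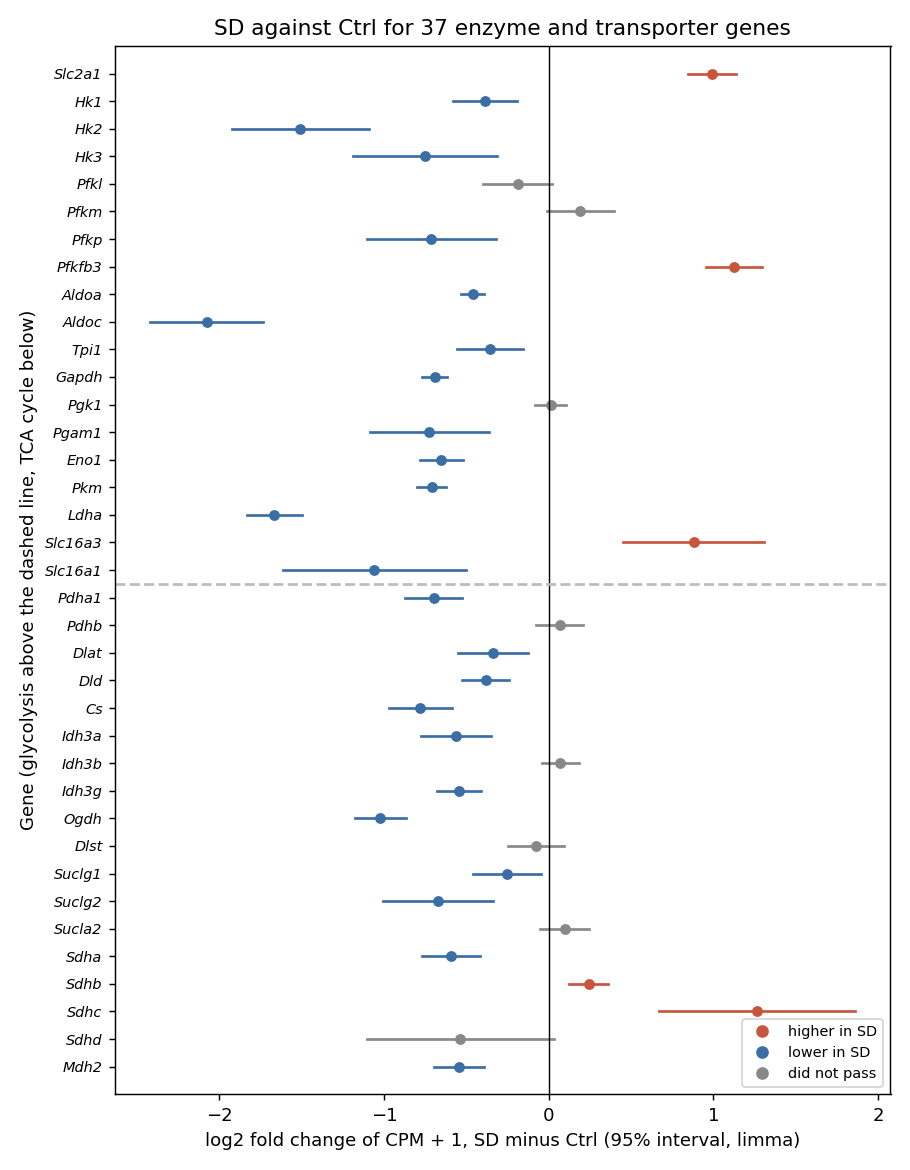
Log2 fold change of CPM + 1, SD minus Ctrl, with its 95% interval from limma, for the 37 members in pathway order (red, higher in SD; blue, lower; grey, did not pass). In glycolysis Slc2a1, Pfkfb3 and Slc16a3 lie right of 0, in the TCA cycle Sdhb and Sdhc do, and Aldoc (-2.08) and Ldha (-1.67) lie farthest left.

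Glucose entry, followed by Slc2a1 alone, and the first step went in opposite directions. The row of Slc2a1 stands out of alphabetical order, as described at the end. Slc2a1, which encodes the glucose transporter GLUT1 (chromosome 4, 119108711 to 119137983), stood at 68.0, 71.1 and 70.5 CPM in the Ctrl libraries and at 136, 144 and 140 in SD. The groups were far apart and the gene rose 2.002-fold (log2 change 0.99, SE 0.071, adjusted p = 5.7e-15). All 3 hexokinase genes fell. Hk2, the inducible hexokinase that is often high in tumours, read 17.7, 13.9 and 17.2 in Ctrl and 5.99, 4.30 and 4.93 in SD. That is a 3.20-fold fall (log2 change -1.51, SE 0.21, adjusted p = 6.2e-08) with no overlap. Hk1, the housekeeping form, went from 60.5 ± 2.21 to 46.2 ± 5.31 (adjusted p = 0.00084). Hk3, the form of white blood cells, went from 9.94 ± 1.08 to 5.50 ± 0.256 (adjusted p = 0.0033).

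The middle of the pathway held the widest spread of changes. Aldoc, the brain-type aldolase, measured 48.3, 35.3 and 40.4 in Ctrl and 10.4, 10.9 and 6.28 in SD. It had the largest fall of the 37 members, 4.49-fold (log2 change -2.08, SE 0.17, adjusted p = 1.7e-13). Aldoa, the main aldolase of the tissue, fell 1.38-fold from 1784 ± 9.69 to 1296 ± 15.5 (adjusted p = 2e-14). Pfkfb3 makes and removes fructose 2,6-bisphosphate, the activator of phosphofructokinase. Its libraries were at 46.0, 43.8 and 51.8 in Ctrl and 102, 105 and 104 in SD, a 2.20-fold rise (log2 change 1.12, SE 0.084, adjusted p = 1.8e-14) with no overlap. The row of Pfkfb3, like that of Slc2a1, stands out of alphabetical order. None of the 3 phosphofructokinase subunits passed as higher. Pfkp, the platelet type, fell from 13.6 ± 0.747 to 7.92 ± 1.06 (adjusted p = 0.0019). Pfkl, the liver type, was at 52.4 ± 3.42 and 46.1 ± 6.68, and Pfkm, the muscle type, at 43.9 ± 3.80 and 50.3 ± 4.62. Neither passed, with 95% intervals of -0.40 to 0.02 and -0.01 to 0.40 on the log2 scale. Tpi1, triose phosphate isomerase, fell 1.29-fold from 52.8 ± 4.45 (adjusted p = 0.0025).

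In the energy-yielding lower part 4 of 5 members fell by similar folds and Pgk1 stayed level. Gapdh, glyceraldehyde 3-phosphate dehydrogenase, read 1521, 1499 and 1518 in Ctrl and 942, 943 and 923 in SD. It fell 1.62-fold (adjusted p = 4.4e-19). Pkm, pyruvate kinase of both the M1 and M2 forms, read 845, 774 and 851 against 499, 523 and 486, a 1.64-fold fall (adjusted p = 9.3e-17). The groups of both genes were well separated. Pgam1, phosphoglycerate mutase, read 19.0, 17.5 and 18.5 in Ctrl and 9.83, 13.9 and 8.97 in SD (1.68-fold lower, adjusted p = 0.0007). Eno1, enolase, fell 1.58-fold from 203 ± 13.9 (adjusted p = 3.8e-11). Pgk1, phosphoglycerate kinase, which acts between Gapdh and Pgam1, read 371, 382 and 376 in Ctrl and 375, 383 and 382 in SD. Its groups overlapped, and the 95% interval of its log2 change was -0.08 to 0.11, which leaves out falls of the size seen in its neighbours.

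Several genes of this stretch have near-copies elsewhere in the genome, and the labels do not state how reads with more than 1 match were counted. Of all 50-base words in its GENCODE transcripts, Pgk1 shared 53.9% with transcripts of other genes, pseudogenes included. Pgam1 shared 36.2%, Eno1 26.0%, Pkm 25.8% and Gapdh 25.1%. For Ldha the share was 9.26%, for Slc2a1 1.54% and for Hk2 and Aldoc 0. Levels of the genes with large shares are therefore uncertain, and the part of shared reads in the level of Pgk1 was not tested.

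**Figure D2:**
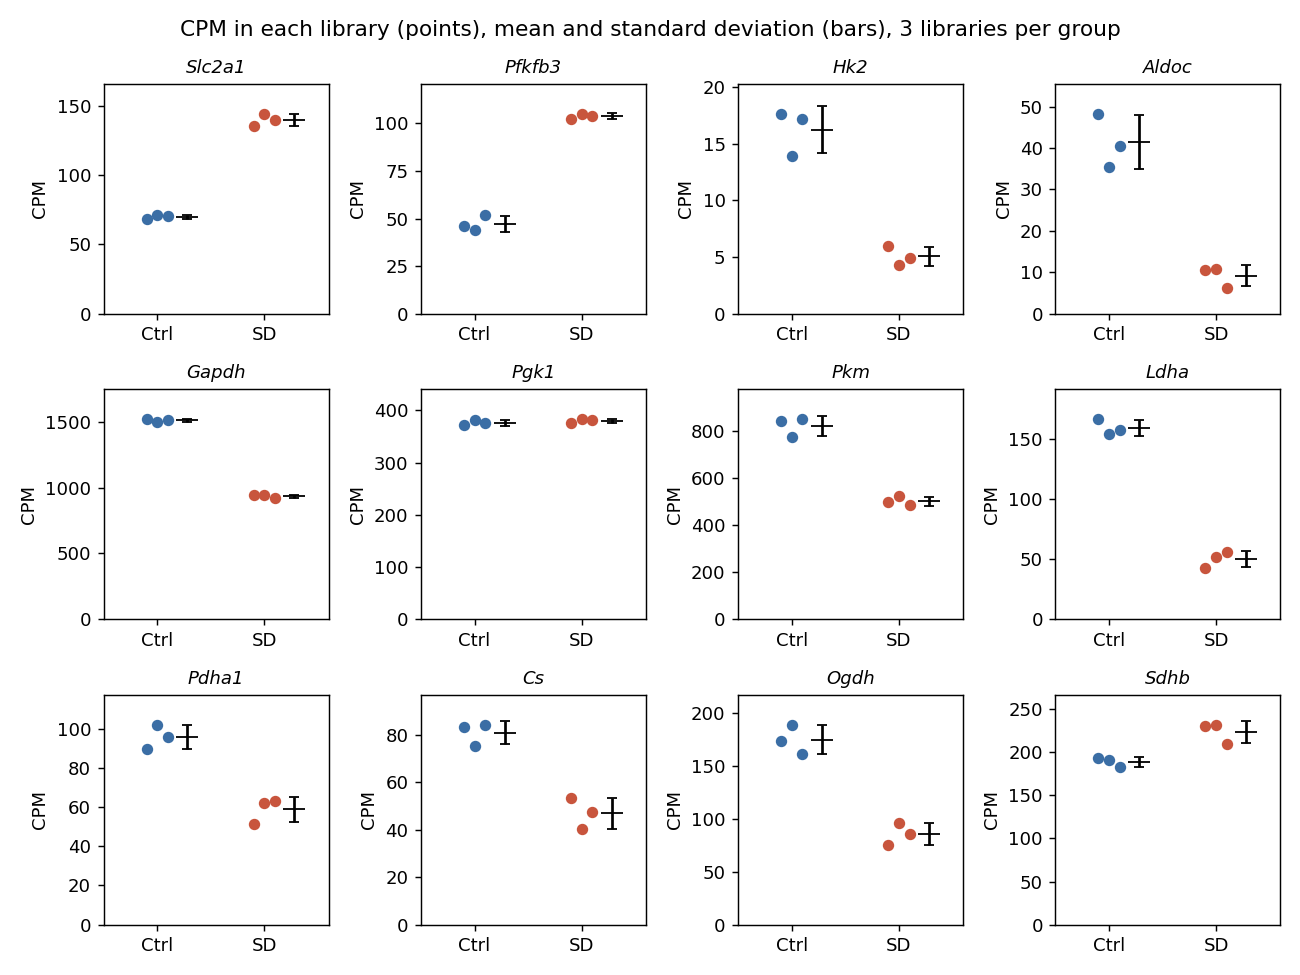
CPM of 12 members in each library (points; blue Ctrl, red SD) with the mean and standard deviation of 3 libraries beside them; each axis starts at 0. Slc2a1, Pfkfb3 and Sdhb lie higher in SD, Pgk1 lies at the same height in both groups, and the other 8 lie lower in SD with no overlap.

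At the fate of pyruvate, Ldha and the lactate transporter gene Slc16a1 fell and the transporter gene Slc16a3 rose. Ldha, lactate dehydrogenase A (chromosome 7, 46841475 to 46855627), read 167, 154 and 158 in Ctrl and 42.5, 51.5 and 55.7 in SD. It fell 3.20-fold (log2 change -1.67, SE 0.083, adjusted p = 9e-20), about the fold of Hk2. Slc16a3, the lactate exporter MCT4, was low and read 5.93, 8.36 and 5.13 in Ctrl and 14.1, 12.9 and 10.8 in SD, a 1.95-fold rise (adjusted p = 0.00056). Slc16a1, the transporter MCT1, read 10.5, 12.9 and 14.1 in Ctrl and 10.8, 6.03 and 2.24 in SD. It passed (log2 change -1.06, SE 0.27, adjusted p = 0.0012), but its groups overlapped, its SD libraries scattered widely, and the log2 change was -0.56 without SD replicate 3. DESeq2 on recovered reads did not call it (adjusted p = 0.17; 1.2e-05 to 0.17 over 18 alternatives).

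Isoenzymes of 1 reaction made up different shares of their families. Shares were taken of CPM per kilobase of exon, since levels of different genes compare only per length. The size of a share depends on the length used, as given in the closing sections. Ldha made up 73.7% ± 2.34 of the Ldha and Ldhb sum in Ctrl and 46.5% ± 4.66 in SD, while Ldhb, the heart-type subunit, was at 27.1 ± 2.17 and 27.1 ± 2.52 CPM. Slc16a1 went from 69.9% ± 6.10 to 34.6% ± 13.9 of the 2 lactate transporters. Among hexokinases the share of Hk1 was 56.6% ± 0.668 in Ctrl and 69.7% ± 3.01 in SD, while that of Hk2 went from 21.7% ± 2.25 to 11.0% ± 2.35. Pfkm held 59.7% ± 0.892 of phosphofructokinase in Ctrl and 66.7% ± 4.87 in SD, a difference of 7.05 points, or 4.32 without SD replicate 3. Of the aldolases Aldoa held 98.0% ± 0.322 and 99.4% ± 0.167. All 10 shares differed with no overlap between groups (two-sided exact permutation test, p = 0.1 for each, 0.1 adjusted over the 10). The smallest p that 3 against 3 libraries can give is 0.1, so none could pass 0.05. Shares of 1 family depend on each other, so the 10 are not separate results. The gap was small for Hk3 (lowest Ctrl library 19.9%, highest SD library 19.8%) and for Pfkl (35.1% and 34.3%).

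**Figure D3:**
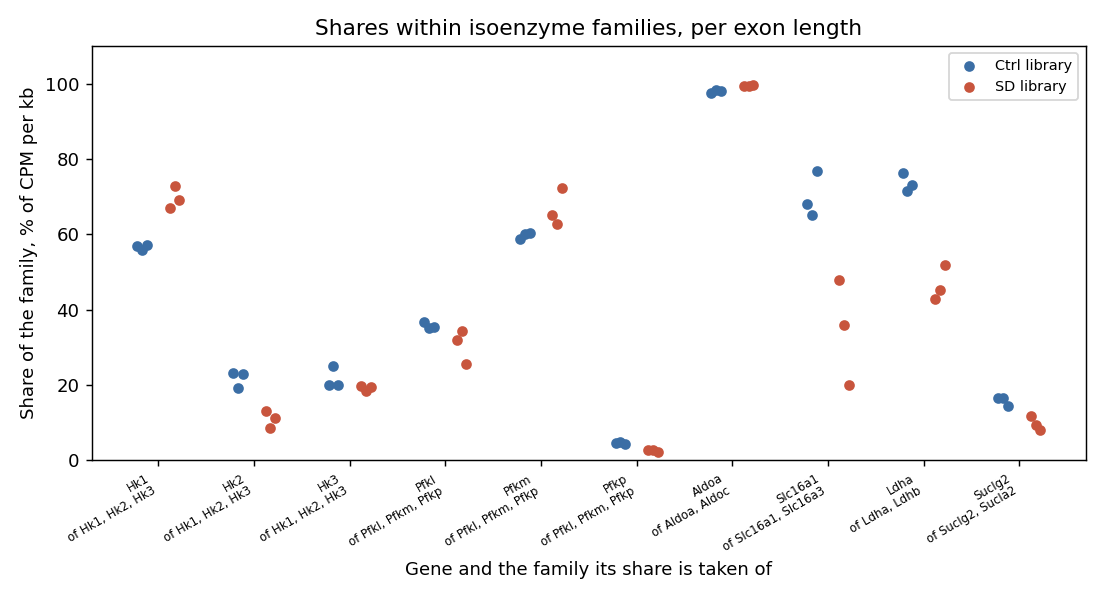
Share of a gene in its isoenzyme family, in % of CPM per kilobase of exon, for 3 Ctrl (blue) and 3 SD (red) libraries; family names stand under each gene. The share of Ldha lies at 73.7% in Ctrl and 46.5% in SD on average, and that of Hk1 at 56.6% and 69.7%.

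The entry to the mitochondrial cycle was lower in 3 of its 4 genes. Pdha1, the catalytic E1 alpha subunit of pyruvate dehydrogenase, read 89.7, 102 and 95.7 in Ctrl and 51.6, 62.0 and 62.9 in SD (1.63-fold lower, adjusted p = 7.1e-09). Its partner Pdhb, the E1 beta subunit, read 107, 119 and 109 against 112, 118 and 120 and did not pass (95% interval -0.07 to 0.21). Both subunits form 1 enzyme, yet in SD Pdha1 lay below every Ctrl library and Pdhb overlapped Ctrl. Dlat, the E2 core, fell from 49.0 ± 1.61 to 38.7 ± 4.14 (adjusted p = 0.0058; 0.054 without SD replicate 2; 0.0033 to 0.054 over 18 alternatives). Dld, the E3 subunit shared with oxoglutarate dehydrogenase, fell from 123 ± 4.37 to 93.9 ± 3.80 (adjusted p = 1.4e-05). Exons of Map3k15 cover 16.1% of the exon bases of Pdha1, and no strand setting is stated.

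From citrate to succinyl-CoA the pattern was again split within complexes. Cs, citrate synthase, the first enzyme of the cycle, read 83.4, 75.2 and 84.3 in Ctrl and 53.3, 40.2 and 47.5 in SD, a 1.72-fold fall (adjusted p = 5.6e-09). Idh3a and Idh3g, the catalytic and a regulatory subunit of the NAD-linked isocitrate dehydrogenase, fell 1.48-fold and 1.46-fold (adjusted p = 1.6e-05 and 3.9e-09). Idh3b, the other subunit, read 254, 238 and 268 in Ctrl and 268, 254 and 277 in SD and did not pass. Ogdh, the E1 subunit of oxoglutarate dehydrogenase, read 174, 189 and 162 in Ctrl and 75.7, 96.0 and 85.8 in SD. At 2.04-fold lower (log2 change -1.02, SE 0.076, adjusted p = 1.4e-14) it had the largest fall of the 18 mitochondrial members. Dlst, its E2 partner, was at 87.3 ± 10.7 and 82.6 ± 5.87 and did not pass.

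Succinyl-CoA ligase makes GTP or ATP depending on its beta subunit. Suclg2, the GTP-forming beta subunit, read 21.9, 21.03 and 18.5 in Ctrl and 14.9, 11.9 and 10.9 in SD (1.63-fold lower, adjusted p = 0.00072). Sucla2, the ATP-forming one, was at 93.7 ± 1.33 and 100.3 ± 6.07 and did not pass, although its groups did not overlap. Suclg1, the common alpha subunit, was at 58.3 ± 5.62 and 49.0 ± 7.16 and passed narrowly (adjusted p = 0.033). The groups of Suclg1 overlapped, and 6 of 18 alternatives did not call it (adjusted p 0.0043 to 0.22 over all 18). Those were DESeq2 (0.092), quantile normalization (0.067) and the fits without Ctrl replicate 1 (0.085), Ctrl replicate 2 (0.15), SD replicate 1 (0.073) or SD replicate 2 (0.22). Its log2 change of -0.25 became -0.16 without SD replicate 2.

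Succinate dehydrogenase, which is also complex II of the respiratory chain, held members that rose and a member that fell. Sdha, the flavoprotein subunit that oxidises succinate, fell from 79.9 ± 4.71 to 52.7 ± 3.16 (1.52-fold, adjusted p = 2.7e-07). Sdhb, the iron-sulphur subunit, read 193, 190 and 182 in Ctrl and 230, 232 and 209 in SD, a 1.19-fold rise (log2 change 0.24, SE 0.058, adjusted p = 0.00049) with no overlap. The membrane anchors were near the floor. Sdhc read 0.690, 1.08 and 1.85 in Ctrl, which is 5, 8 and 13 reads, and 4.76, 3.30 and 4.63 in SD, which is 31, 23 and 31 reads. It passed as higher (adjusted p = 0.00035), with a log2 change of 1.27 that ran from 0.57 at a pseudocount of 5 to 1.83 in DESeq2. Ctrl replicate 1 lay below 1 CPM, so Sdhc met the filter on low values only through SD, where it was high. Sdhd, at 3.56 ± 0.760 and 2.14 ± 0.489, did not pass. Depending on the library, 3 reads were worth 0.404 to 0.461 CPM, a limit that reflects counting alone. Mdh2, the malate dehydrogenase that closes the cycle, read 135, 127 and 116 in Ctrl and 86.0, 80.9 and 91.9 in SD (1.46-fold lower, adjusted p = 7e-08).

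Partner genes were compared by their log2 ratio within each library, for 9 pairs chosen after the values were seen. The ratio of Pdha1 to Pdhb went from -0.22 ± 0.031 to -0.99 ± 0.11, that of Idh3g to Idh3b from -0.73 ± 0.055 to -1.35 ± 0.025, and that of Sdha to Sdhb from -1.24 ± 0.13 to -2.09 ± 0.17. The ratio of Ogdh to Dlst, taken like the others on CPM without length, went from 1.01 ± 0.16 to 0.05 ± 0.16. The ratio of Gapdh to Pgk1, neighbours in glycolysis, went from 2.01 ± 0.033 to 1.30 ± 0.027. In all 9 pairs the groups did not overlap. Since the pairs were picked with the gene that fell as the numerator and a level or higher partner below it, that direction was fixed by the choice and is a description with no test. A ratio within a library does not depend on how the library was scaled.

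**Figure D4:**
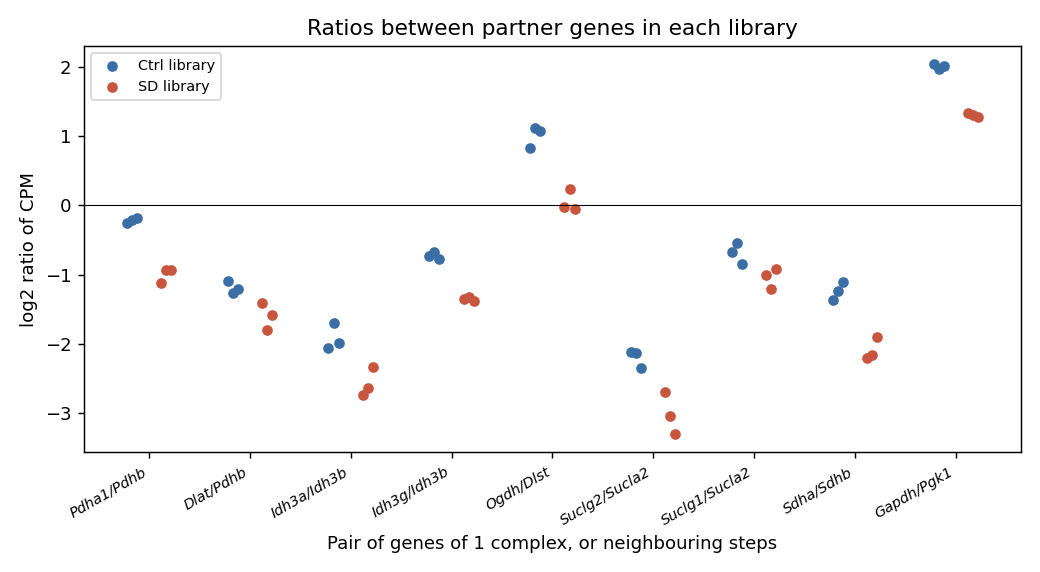
Log2 ratio of the CPM of 2 partner genes in each library (blue Ctrl, red SD, 3 each). Shown are 8 mitochondrial pairs and Gapdh over Pgk1. Suclg2 and Sucla2 are alternative beta subunits of succinyl-CoA ligase, and the other mitochondrial pairs each lie within 1 complex. The pairs were chosen after the values were seen, with the gene that fell as the numerator, which fixes the direction; the mean ratio of Ogdh over Dlst lies at 1.01 in Ctrl and 0.05 in SD.

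Per kilobase of exon, the order of levels changed little at the top. Aldoa was highest in both groups (613 ± 3.33 CPM per kilobase in Ctrl, 445 ± 5.34 in SD), followed by Gapdh (366 and 226), Pgk1 (168 and 169) and Pkm (165 and 100.5). By this length Pgk1 and Pkm lay within their spread of each other in Ctrl and apart in SD. Their order depends on the length used. Exons of Pkm cover 5001 bases and its longest transcript 2432, against 2244 and 1825 for Pgk1. Places per length of the longest transcript are not given here. Further down, Ldha went from place 8 of 37 in Ctrl to place 16 in SD, while Slc2a1 went from place 16 to place 7. Summed over the 19 glycolysis members, the level was 5346, 5214 and 5356 CPM in Ctrl and 3761, 3851 and 3721 in SD. The 18 mitochondrial members summed to 1774, 1790 and 1739 in Ctrl and 1449, 1447 and 1515 in SD. Aldoa, Gapdh and Pkm dominate the first sum.

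Genes next to these pathways were counted as well. Of all tested genes 28.7% were lower and 27.7% higher in SD, which the counts below stand beside. Of 9 tested genes around pyruvate dehydrogenase 6 fell, 1 rose and 2 did not pass. Pdk2 and Pdk1, kinases that switch the enzyme off, fell 1.97-fold from 98.9 ± 8.85 and 2.35-fold from 15.1 ± 0.849 (adjusted p = 2.1e-12 and 7.1e-06). The mitochondrial pyruvate carrier subunits Mpc1 and Mpc2 fell 1.55-fold and 1.23-fold. Pdp1, a phosphatase that switches the enzyme on, was the gene that rose, and was named after its value was seen (30.6 ± 3.29 to 42.2 ± 6.28, adjusted p = 0.0016). Among 10 tested other TCA enzymes and carriers 8 fell and 2 did not pass, and the median log2 change was -0.51. Aco1, the cytosolic aconitase, fell 2.93-fold, Idh1, the cytosolic isocitrate dehydrogenase, 1.77-fold and Mdh1, the cytosolic malate dehydrogenase, 1.38-fold.

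Of 6 tested pentose phosphate genes 5 fell, led by Tkt, transketolase, from 323 ± 6.90 to 185 ± 6.19 (adjusted p = 6.2e-16). Of 14 genes of anaplerosis and redox shuttles 9 fell, 1 rose and 4 did not pass, and DESeq2 called 8 as lower, without Gpt. Acly, ATP citrate lyase, fell 2.46-fold and Me1, malic enzyme, 3.63-fold. Glud1 and Got2, which link glutamate to the cycle, fell 1.54-fold and 2.03-fold. Glycogen genes moved both ways, with 7 falls, 5 rises and 1 that did not pass of 13. Pgm2, a phosphoglucomutase, fell 3.97-fold from 180 ± 6.38 and Pygl, the liver-type glycogen phosphorylase, 2.26-fold. Of 4 tested gluconeogenesis genes 0 passed in limma, edgeR or DESeq2, and 0 had an unadjusted p under 0.05 in limma.

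A further list held other isoenzymes, glucose transporters and accessory genes of glycolysis. Of 15 tested 7 rose, 3 fell and 5 did not pass, with a median log2 change of 0.43. Among the glucose transporter genes of the list, Slc2a4 and Slc2a12 rose, and Slc2a6 and Slc2a8 did not pass. Slc2a4 and Slc2a12 were near the floor and met the filter on low values only through SD, where they were high. The groups of Slc2a4 overlapped. These transporter genes were named outside the rule of smallest p given in the closing sections. Eno3, the muscle enolase, rose 2.70-fold from 27.3 ± 0.348 (adjusted p = 2.7e-15). Hkdc1, a hexokinase relative, fell 5.96-fold from 21.1 ± 2.83, and the bifunctional Pfkfb2 and Pfkfb4 fell 4.30-fold and 2.82-fold, against the rise of Pfkfb3 in the same family. Among 16 tested genes of hypoxia control 4 rose, 6 fell and 6 did not pass. Vegfa, the endothelial growth factor, rose 2.45-fold from 893 ± 16.6 to 2189 ± 22.1 (adjusted p = 4e-28). Epas1, which encodes HIF-2 alpha, rose 1.61-fold. Egln2 rose and Egln1 fell, both oxygen-sensing hydroxylases. Hif1a, chosen after its value was seen, was at 181 ± 11.4 and 169 ± 9.35 and did not pass. Of 13 tested regulators of energy genes 3 rose (Max, Gabpa and Ppargc1b), 1 fell (Esrra, which DESeq2 did not call) and 9 did not pass. The share called was 62.5% in hypoxia control and 30.8% among these regulators, against 56.4% of all tested genes.

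**Figure D5:**
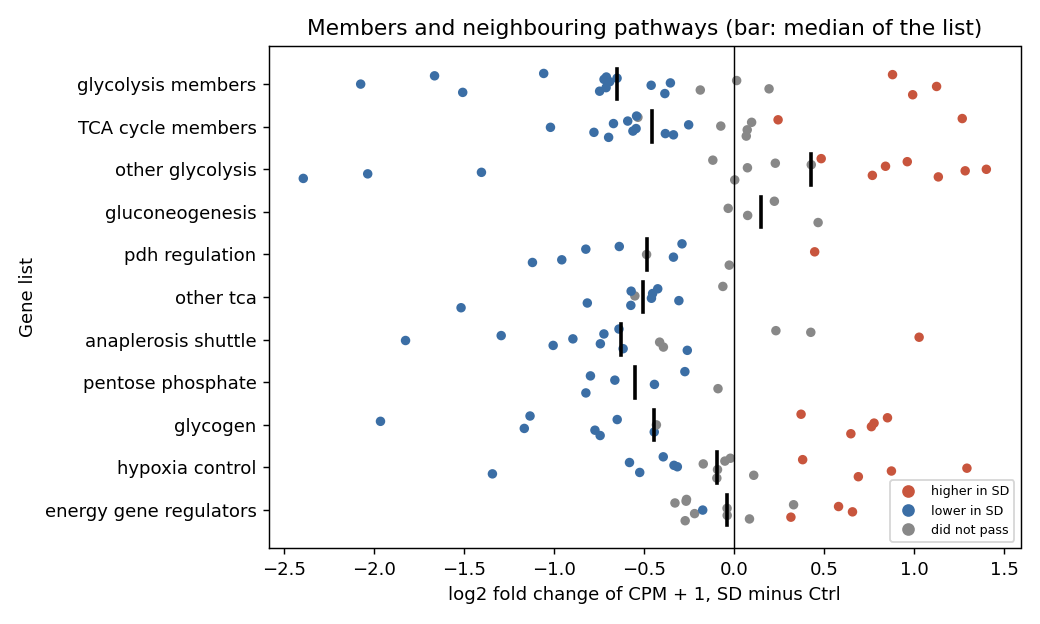
Log2 fold change of CPM + 1, SD minus Ctrl, for tested genes of the 2 member sets and 9 neighbouring lists (points coloured by call, black bar the median). The medians of glycolysis and TCA members, other TCA, anaplerosis and pentose phosphate genes lie between -0.46 and -0.65, and that of other glycolysis genes at 0.43.

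Markers of lung cell types moved in the same comparison, and in bulk tissue fewer cells of a type and less RNA per cell cannot be told apart. Of all tested genes 27.7% were higher and 28.7% lower in SD. Type 2 alveolar markers, among them Sftpc, summed to 4937 to 5449 CPM in Ctrl and 1359 to 1441 in SD, with 7 of 7 tested lower. Alveolar macrophage markers summed to 324 to 338 and 77.4 to 85.2, with 5 of 5 lower, and 5 of 5 markers of dividing cells were lower (87.5 to 95.6 against 24.9 to 34.0), with 4 of them called by edgeR and DESeq2, which left out Cdk1. Ciliated markers were higher in 7 of 7 (805 to 812 against 2157 to 2199), endothelial ones in 5 of 5 (813 to 844 against 2513 to 2561) and smooth muscle ones in 6 of 6 (442 to 452 against 1127 to 1137). Heart and skeletal muscle markers went both ways, 4 higher, 3 lower and 1 not passing. Of 5 fibroblast markers 3 fell, 1 rose and the other missed the threshold. Type 1 alveolar markers rose in 4 and fell in 3 of 7, B cell markers rose in 2 of 3, T and NK cell markers in 2 of 2 and club cell markers in 2 of 2. B cell markers summed to 10.8 to 13.2 CPM in Ctrl and 33.8 to 37.5 in SD. T and NK cell markers, near the floor, summed to 1.38 to 2.16 and 3.44 to 6.14. Cd3e and Trac met the filter on low values only through SD, and the groups of Cd3e overlapped. The club cell marker Bpifa1 was low, at 1.76 ± 0.485 and 4.15 ± 1.48, and Aldh1a1 was at 390 ± 16.6 and 1192 ± 31.3. The neutrophil marker Cxcr2 fell, with overlapping groups, and the erythroid marker Alas2 rose, each the single tested gene of its list. No tested marker was at 0, and defining genes such as Scgb1a1, Marco, S100a8 and Hba-a1 were not analysed here. The part of these cell types in the changes of glycolysis and TCA genes was not tested. Most rows of the table with a ratio of at least 2 stand out of alphabetical order, as described at the end. The place of the marker rows is not given here.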

How the data were processed

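RNA of 6 lung tumour libraries, 3 Ctrl and 3 SD, was analysed. The submitters' processing notes name the build mm10 and the tools featureCounts (1.5.0-p3) and HISAT2 (2.0.5). The strand setting and annotation are not stated there. The authors deposited CPM, 1 column per library, per the file headers. Each column was made of multiples of 1 step, which gave totals of 6511192 to 7417095 reads and whole reads for 61022 of 61146 values (99.8%, tolerance 0.01 read), and for all values after the first 60 rows. Those 60 rows were dropped. limma 3.58.1 (trend) compared the groups on log2(CPM + 1), with no covariate, for genes that reached 1 CPM in 3 or more libraries, with Benjamini-Hochberg adjustment over 9945 genes. edgeR 4.0.16, which called 5575, and DESeq2 1.42.0, which called 5173, ran on the recovered reads as alternatives. The fit was tested on simulated data. Gene coordinates, exon lengths and shared 50-base words came from GENCODE M21 (mm10), in which 10190 gene IDs had a name. Members and lists were chosen with earlier results of these data known. Named were every member, with values per library for the largest change of each step, members that moved against their pathway, Gapdh, Pkm and Cs, and up to 4 genes of each neighbouring list by smallest p; Pgk1, Pdhb and the pairs were chosen after their values were seen. The engineered allele and 1 gene that the rule would name are not reported here.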

Additional observations from a re-analysis of the deposited data

How the results depend on the processing

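The log2 change of each member was recomputed under 18 alternatives, in 664 gene and setting pairs. Direction and call held in 652, 8 lost the call, 1 gained it and 3 changed sign, and 26 of the 29 called members held under every alternative run. Suclg1, Slc16a1 and Dlat were the exceptions. The 3 sign changes were of genes that had not passed: Dlst without Ctrl replicate 1 (0.012; -0.16 to 0.012 over the fits that leave out 1 library), Idh3b after quantile normalization (-0.032) and Pgk1 after quantile normalization (-0.068); the cause was not tested. Pfkl passed without SD replicate 2 (-0.29, adjusted p = 0.026; 0.026 to 0.53 over its alternatives). Leaving out 1 library gave 23 to 24 members lower and 5 higher, and 4968 to 5219 genes changed. A pseudocount of 5, which shrinks low genes by construction, moved the glycolysis median from -0.65 to -0.51 and the TCA median from -0.46 to -0.34. With a filter of 5 CPM, TCA members higher became 1, because Sdhc was no longer tested. Libraries with the same replicate number did not deviate together (correlations of -0.00703, -0.019 and 0.0129). Adding the replicate block gave 5552 changed genes, with 24 members lower and 5 higher. The median of all genes moved by at most 0.016, in DESeq2. Per length of the longest transcript the share of Ldha was 80.9% in Ctrl and 56.8% in SD. That of Hk1 was 70.1% and 80.3%, that of Hk2 14.6% and 6.93%, and that of Pfkm 49.4% and 56.9%. Every share kept its direction, while its level depended on the length used. Sdhc and Sdhd rest on 5 to 31 reads per library.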

Other observations

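After the first 60 rows the table is listed mostly by alphabet, and 1005 of its 10131 rows stand outside the longest alphabetical run. Of those 1005 rows 97.3% had a ratio of mean CPM, SD over Ctrl, of at least 2, against 0.329% of the 9126 rows in order. Slc2a1, listed between Scn4a and Scn7a, Pfkfb3, and Sdhc, listed between Rgs5 and Rgs7bp, were the 3 members among them, with ratios of 2.002, 2.20 and 3.51. Their values were whole reads, as were all values after the first 60 rows, so whole reads say nothing about these rows in particular. By count, 978 rows with a ratio of at least 2 stood out of order and 30 in order. Rises of at least 2-fold in the neighbouring lists and cell type markers fall under the same count. How the order arose was not tested.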
